A study of Mus musculus with 8 samples.

Results

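Costimulatory and coinhibitory receptors set how strongly a T cell answers once its antigen receptor is engaged, and 10 of them were followed here in mouse regulatory T (Treg) cells with and without BRG1, the ATPase of the BAF chromatin remodelling complex that is encoded by Smarca4. The genes were taken by name and not by a cutoff on their values, but earlier results of these data were known when they were chosen. All 10 were found among the 53465 gene identifiers of the files. They are Icos and Cd28, which deliver costimulation, and Ctla4, Pdcd1, Btla, Tigit, Cd96, Cd226, Lag3 and Havcr2, of which Cd226 is costimulatory and the others are known mainly as inhibitory. In Treg cells, CTLA4 takes the ligands CD80 and CD86 away from CD28 on other T cells, and ICOS and TIGIT are known for marking activated or effector Treg cells. TIGIT, CD96 and CD226 compete for the ligand CD155, encoded by Pvr, with CD226 delivering the stimulatory signal. PD-1, encoded by Pdcd1, and BTLA recruit phosphatases to their tails, LAG3 binds MHC class II, and TIM-3, encoded by Havcr2, appears on strongly stimulated T cells.

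The RNA of 8 libraries was sequenced, 1 library per condition, from Treg cells of spleen and lymph nodes (LN) of C57BL/6 mice aged 3 to 4 weeks. All mice carried R26 CAG-FlpoER, a tamoxifen (TAM)-activated FLP recombinase under the ubiquitous CAG promoter, and Cre, where present, was driven by the Foxp3 locus on the X chromosome. The WT control was Brg1 F/+ with Foxp3 YFP-Cre/+, so that its Cre+ cells kept 1 Brg1 allele. Mosaic females were Brg1 F/ΔR with 1 Foxp3 YFP-Cre allele, had both kinds of Treg cells in the same healthy animals, and gave a Brg1-sufficient library without Cre (given as Foxp3 +/+) and a Brg1-deleted library with Cre. The study describes the former cells as YFP- and the latter as YFP+, so that only the latter carried the Foxp3 reporter. Its stated gate for total Treg cells, CD4+ CD25+ YFP+, does not cover the YFP- cells. The rKO1 mice, Brg1 F/ΔR with Foxp3 YFP-Cre/YFP-Cre, were severely inflamed and gave a Brg1-deleted library without treatment. On Day 7 after a low dose of TAM they gave a GFP+ Brg1-deleted library, in which the gene trap of the ΔR allele remained, and a GFP- Brg1-reexpressed library, in which FLP had removed it (genotype given as F/+). These are the 6 total Treg libraries. A separate experiment on activated Treg (aTreg) cells, sorted as CD44hi CD62Llo on Day 7 after TAM, gave 2 libraries labelled Brg1-deleted and Brg1-reexpressed, and levels were compared only within an experiment. The number of mice behind a library was not given in the sources used here.

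The values are FPKM (fragments relative to library total and to exon length), and the reads recovered from them summed to between 16297295 and 24058287 per library. A gene counts as called where its FPKM differed at least 2-fold between the libraries compared, among genes with at least 5 CPM (a count scaled to depth, here FPKM times exon length in kilobases) in either. With 1 library per condition no p-value is given, and the exact 95% binomial intervals given after folds cover counting error only. As a yardstick of library-to-library spread, each fold was set beside the same gene's fold in both pairs that the study treats as comparable, namely WT against mosaic Brg1-sufficient and GFP+ against untreated rKO1, which share libraries with the comparisons. Smarca4 was at 14.8 FPKM in WT, 12.1 and 7.44 in the mosaic Brg1-sufficient and Brg1-deleted libraries, 7.34 in untreated rKO1, and 6.13 and 9.52 in the GFP+ and GFP- libraries, in the order of the labels, although its count includes exons upstream of the trap. The library labelled aTreg Brg1-deleted held more Smarca4 (11.1 FPKM) than the library labelled aTreg Brg1-reexpressed (9.02), its column is headed as WT and its genotype is described as F/F, so the direction of every aTreg result rests on the sample titles. The 5 Treg markers were present in every library, with summed FPKM from 206 to 458. Of these, Foxp3 and Cd3e varied more than the sum. Foxp3 was 6.84-fold lower in WT than in the mosaic Brg1-sufficient library, a pair of the yardstick. Cd3e was at 99.7 FPKM in WT and at 168 and 150 in the mosaic Brg1-sufficient and Brg1-deleted libraries. Its level was 48.6 FPKM in untreated rKO1, and 27.6 and 29.01 in the GFP+ and GFP- libraries. Reads of 4 Y-linked genes were at 0 in the WT and mosaic libraries and present in all rKO1 libraries, which were labelled with Foxp3 YFP-Cre/YFP-Cre, so that sex and host cannot be told apart. Xist had 10 reads in untreated rKO1 and 934 in the GFP+ library, which held Y-linked reads as well, so that sex also differed between the GFP+ and untreated rKO1 libraries of the yardstick. In bulk RNA, fewer cells of a type and less RNA per cell also cannot be told apart.

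Cd28, Ctla4 and Icos are neighbours on chromosome 1, with 0 coding genes between them. Cd28 (ENSMUSG00000026012) lies at chr1:60716800-60773359, Ctla4 (ENSMUSG00000026011) at chr1:60887000-60915832 and Icos (ENSMUSG00000026009) at chr1:60977927-61000320 in GRCm38, all on the + strand. Tigit (ENSMUSG00000071552, chr16:43648867-43664146, - strand), Btla (ENSMUSG00000052013, chr16:45224315-45257670, + strand) and Cd96 (ENSMUSG00000022657, chr16:46035657-46120251, - strand) are all on chromosome 16, with 21 coding genes between Tigit and Btla and 10 between Btla and Cd96. Pdcd1 (ENSMUSG00000026285) lies at chr1:94038305-94052553 and Lag3 (ENSMUSG00000030124) at chr6:124904361-124911705, both on the - strand, and Havcr2 (ENSMUSG00000020399) at chr11:46454935-46481255 on the + strand. No receptor shares exon bases with another gene. Promoter windows of 300 bases around the transcription start were looked for in RefSeq (GRCm38.p6) for all receptors but Cd226 and found for 6. Of these, 4 are printed, the first 3 because their genes were higher with BRG1 in at least 1 comparison. Cd96 is printed because it was the receptor called lower. Capitals mark matches, on either strand, to the letters TGANTCA (AP-1), TTCNNNGAA (STAT), TGTGGT (RUNX) and GGAAAA (NFAT), factors of T cell activation.
Ctla4 promoter (chr1:60908775-60909074, + strand): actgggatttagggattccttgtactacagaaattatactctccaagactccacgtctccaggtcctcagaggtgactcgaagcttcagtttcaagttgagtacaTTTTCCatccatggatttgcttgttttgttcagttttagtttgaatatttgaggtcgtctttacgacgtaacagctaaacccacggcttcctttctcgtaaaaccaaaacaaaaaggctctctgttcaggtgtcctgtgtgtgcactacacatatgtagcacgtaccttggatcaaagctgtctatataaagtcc
Tigit promoter (chr16:43664135-43664434, - strand): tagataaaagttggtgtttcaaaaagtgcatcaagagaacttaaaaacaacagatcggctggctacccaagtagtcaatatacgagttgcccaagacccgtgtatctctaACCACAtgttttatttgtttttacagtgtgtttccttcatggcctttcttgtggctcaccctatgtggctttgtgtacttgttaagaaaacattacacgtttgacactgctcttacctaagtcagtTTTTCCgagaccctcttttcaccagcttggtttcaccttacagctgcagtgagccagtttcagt
Havcr2 promoter (chr11:46454681-46454980, + strand): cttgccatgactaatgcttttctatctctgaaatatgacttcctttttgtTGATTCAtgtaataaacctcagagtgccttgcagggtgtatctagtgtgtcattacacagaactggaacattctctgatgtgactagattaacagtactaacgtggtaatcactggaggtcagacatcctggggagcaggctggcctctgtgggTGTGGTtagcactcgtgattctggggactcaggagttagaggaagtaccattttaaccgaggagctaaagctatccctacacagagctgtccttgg
Cd96 promoter (chr16:46120199-46120498, - strand): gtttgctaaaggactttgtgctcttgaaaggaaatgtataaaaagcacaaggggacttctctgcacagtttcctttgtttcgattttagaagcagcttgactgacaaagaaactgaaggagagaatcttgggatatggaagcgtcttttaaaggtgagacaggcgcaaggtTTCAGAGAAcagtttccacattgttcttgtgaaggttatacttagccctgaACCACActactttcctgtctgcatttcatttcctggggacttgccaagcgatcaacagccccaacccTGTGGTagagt
Positions were counted from the first transcribed base as 0. In Havcr2, the AP-1 letters start at -200 and the RUNX letters at -46. In Tigit, the RUNX letters start at -140 and the NFAT letters at -14. Ctla4 holds the NFAT letters at -145, and Cd96 holds the STAT letters at -79 and RUNX letters at -28 and at 39. The 32851 promoter windows searched leave out the chromosome of Cd226. Of them, 7.81% hold the AP-1 letters, 8.30% the STAT letters, 16.8% the RUNX letters and 23.4% the NFAT letters. The RUNX letters were in 4 of the 6 receptor windows (Btla, Cd96, Havcr2 and Tigit), which include genes that were higher and a gene that was lower with BRG1, and the NFAT letters in 2 (Ctla4 and Tigit). A match is a description of the sequence only.

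The receptors fell into those whose level moved many-fold across the 6 total Treg libraries and those that hardly moved. From the lowest to the highest library, Havcr2 spanned 87.2-fold, Tigit 37.9-fold, Icos 17.1-fold and Lag3 9.24-fold. Ctla4 spanned 4.90-fold, Cd226 4.55-fold, Pdcd1 3.63-fold and Cd96 2.11-fold, whereas Cd28 and Btla stayed within 1.73-fold and 1.70-fold. All but Lag3 and Havcr2 reached 5 CPM in every library. Lag3 did so in 1 of the 6 total Treg libraries and Havcr2 in 3.

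**Figure D1:**
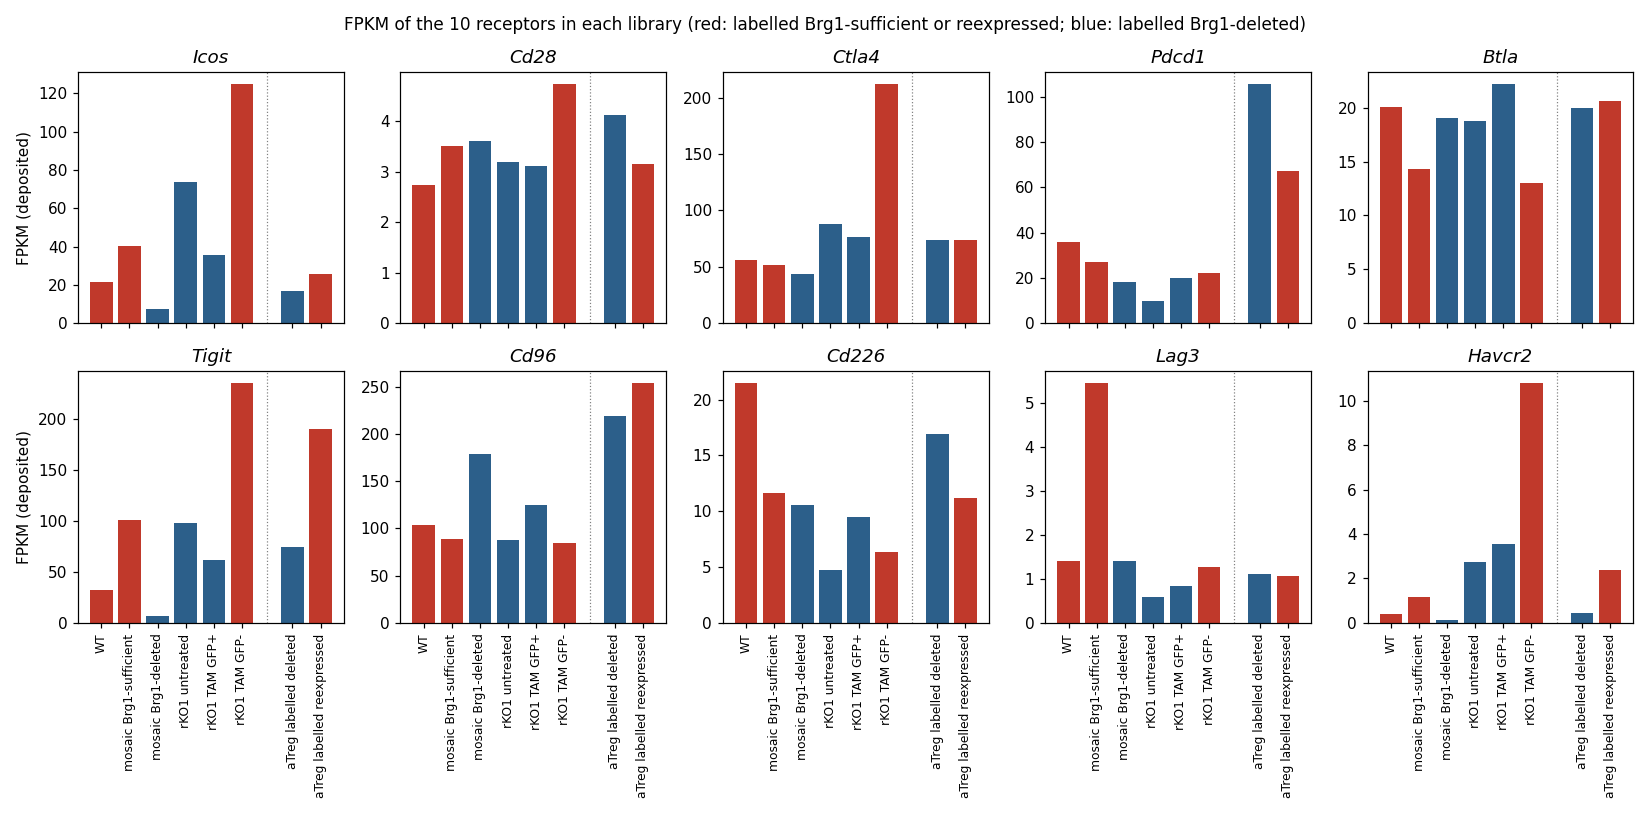
FPKM of each receptor (vertical axis, linear, own scale per panel) in the 8 libraries, 1 bar per library, with total Treg libraries left and aTreg libraries right of the dotted line. The Brg1-reexpressed GFP- library is the highest of the 6 for Icos, Cd28, Ctla4, Tigit and Havcr2, whereas Cd96 is highest in the mosaic Brg1-deleted library, Pdcd1 and Cd226 in WT, and Lag3 in the mosaic Brg1-sufficient library.

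The contrast within the mosaic females asks what loss of BRG1 goes with in a healthy host. With BRG1 present, Tigit, Icos and Lag3 were called higher and Cd96 was called lower, so that 3 of the 9 receptors tested were higher and 1 was lower. Among all 10111 genes tested, 4.05% were called higher and 2.17% lower. In the rKO1 mice after TAM, the contrast asks what reexpression goes with in an inflamed host. Tigit, Icos, Havcr2 and Ctla4 were called higher with reexpression, 4 of the 9 receptors tested, and 0 were lower, beside 6.59% of all 10471 genes higher and 6.43% lower. The study's own display of activation genes holds 3 of the receptors (Havcr2, Icos and Tigit), picked on these libraries, so their direction is not independent evidence. The median log2 fold of the receptors was 0.25 in the mosaic females and 0.61 after TAM, against 0.03 and 0.01 over all genes tested. Scaling by the total of recovered reads lowered every log2 fold after TAM, with a median over all genes of -0.30, and turned 690 higher and 673 lower calls over all genes into 373 and 1266. The same scaling turned 409 higher and 219 lower calls in the mosaic females into 300 and 308. The receptors called higher stayed called in both contrasts under that scaling.

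Markers of the cells moved with both contrasts. In the mosaic females, Foxp3 was 2.18-fold higher in the Brg1-sufficient library, at 137 against 62.7 FPKM, while the other 4 Treg markers were not called. The 5 conventional helper T cell markers summed to 44.9 against 17.2 FPKM there, with Cd40lg 2.33-fold higher and Il2 and Il21 at 99 and 71 against 14 and 8 reads. Of the myeloid markers, Fcer1g was 3.64-fold higher, and 0 of the other 2 tested were called. After TAM the helper markers went the other way, with a sum of 36.2 FPKM in the GFP- library against 96.2 in the GFP+ library. The sum was 35.1 FPKM in untreated rKO1 and 45.7 in WT, so that the GFP+ library was the one that stood apart. Of the 5 markers tested, 4 were called higher in the GFP+ than in the untreated rKO1 library. Il2, Il21, Il4 and Cd40lg, 4 of the 5 tested, were called lower in the GFP- library, where Il2 had 9 reads against 89 and Il21 3 against 141. Ncr1 had 0 reads there against 122. Foxp3 was at 29.1 against 29.2 FPKM. The part of these markers in the receptor differences was not tested.

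**Figure D2:**
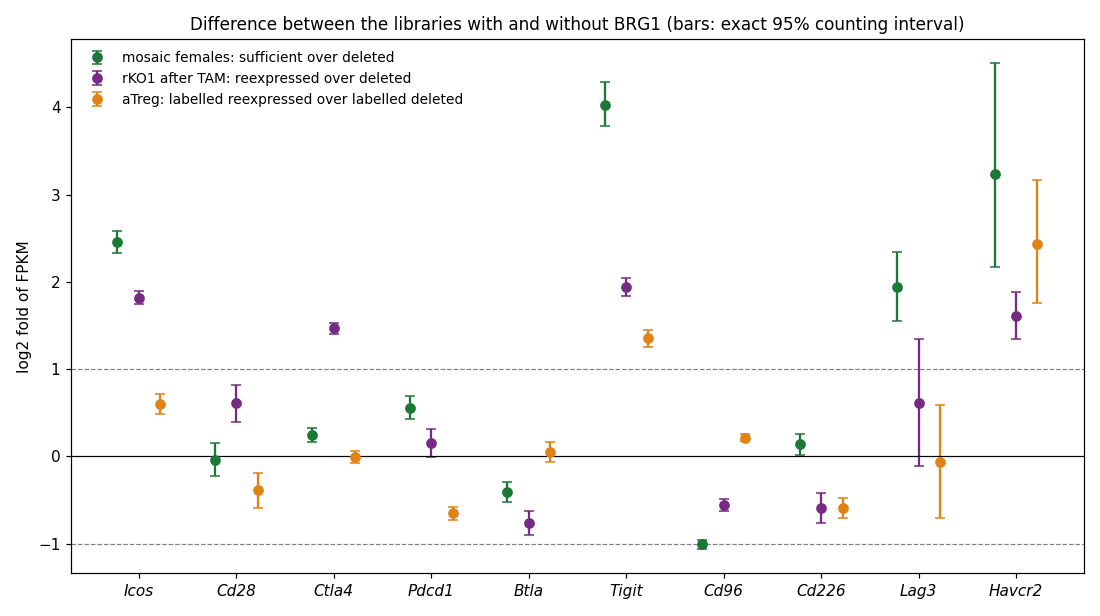
Log2 fold of FPKM (vertical axis) of each receptor between the libraries with and without BRG1, as labelled, in the mosaic females, in rKO1 mice after TAM and in aTreg cells, with bars for exact 95% counting intervals and dashed lines at 2-fold. Tigit, Icos and Havcr2 lie above 0 in all 3 contrasts, and the highest point is Tigit in the mosaic females at 4.03.

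Icos, the inducible costimulator, was at 21.7 FPKM in WT, 40.1 and 7.32 in the mosaic Brg1-sufficient and Brg1-deleted libraries, 73.6 in untreated rKO1, and 35.4 and 125 in the GFP+ and GFP- libraries. The library with BRG1 was the higher in both contrasts, while the deleted libraries of the inflamed mice were above the WT library. In the mosaic females Icos was 5.49-fold higher (5.02 to 6.00) with BRG1 and 3.53-fold higher (3.36 to 3.71) in the reexpressed cells. Its folds in the comparable pairs were 1.85 and 2.08, both smaller. The 6 levels stood in an order in which every neighbouring pair differed beyond counting error.

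Cd28, the costimulatory receptor present on resting T cells, was at 2.73 FPKM in WT, 3.51 and 3.60 in the mosaic Brg1-sufficient and Brg1-deleted libraries, 3.20 in untreated rKO1, and 3.11 and 4.74 in the GFP+ and GFP- libraries. It stood higher than its neighbours only in the GFP- library. The mosaic libraries did not differ beyond counting error, at 1.03-fold (0.90 to 1.17) higher in the Brg1-deleted one. The reexpressed library was 1.52-fold higher (1.32 to 1.76) than the GFP+ library, which is below the 2-fold criterion but above its folds of 1.28 and 1.03 in the comparable pairs. From the second to the sixth library in order, neighbours had intervals that held equality, although the mosaic Brg1-deleted library was 1.32-fold above WT (1.13 to 1.54).

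Ctla4, which encodes the inhibitory receptor of CD80 and CD86, was at 56.1 FPKM in WT, 51.5 and 43.3 in the mosaic Brg1-sufficient and Brg1-deleted libraries, 88.2 in untreated rKO1, and 76.7 and 212 in the GFP+ and GFP- libraries. The 3 libraries of inflamed mice were above the 3 libraries of healthy mice, and the reexpressed library was far above the rest. In the mosaic females its fold was 1.19 (1.12 to 1.26), and after TAM it was 2.77 (2.65 to 2.89). Ctla4 varied little in the comparable pairs, at 1.09-fold and 1.15-fold.

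Pdcd1, the PD-1 gene, was at 36.0 FPKM in WT, 26.9 and 18.3 in the mosaic Brg1-sufficient and Brg1-deleted libraries, 9.92 in untreated rKO1, and 20.1 and 22.4 in the GFP+ and GFP- libraries. Its order differed from that of Ctla4 and Icos, with WT at the top and untreated rKO1 at the bottom. The mosaic Brg1-sufficient library was 1.47-fold higher (1.35 to 1.62), which is within its 2.03-fold difference between the GFP+ and the untreated rKO1 libraries. After TAM its 1.11-fold difference was within counting error (0.998 to 1.24) and turned to -0.15 on the log2 scale when libraries were scaled by total recovered reads. The GFP+ library could not be ordered against the GFP- or the mosaic Brg1-deleted library, whereas these latter libraries differed 1.23-fold (1.11 to 1.36).

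Btla, the receptor of HVEM on resting lymphocytes, was at 20.1 FPKM in WT, 14.4 and 19.1 in the mosaic Brg1-sufficient and Brg1-deleted libraries, 18.7 in untreated rKO1, and 22.2 and 13.05 in the GFP+ and GFP- libraries. The libraries with BRG1 were the lower ones in both contrasts, by less than 2-fold. Btla was 1.33-fold lower (1.22 to 1.44) in the mosaic Brg1-sufficient cells, within its 1.40-fold difference between both Brg1-sufficient controls. In the reexpressed cells it was 1.70-fold lower (1.55 to 1.87), beyond both comparable pairs, and it passed the 2-fold criterion, at -1.07 on the log2 scale, when libraries were scaled by total recovered reads.

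Tigit showed the widest contrasts of the receptors with a level over 5 CPM in every library. It was at 32.6 FPKM in WT, 101 and 6.20 in the mosaic Brg1-sufficient and Brg1-deleted libraries, 97.9 in untreated rKO1, and 61.3 and 235 in the GFP+ and GFP- libraries. The lowest library was the Brg1-deleted one of the mosaic females and the highest the reexpressed one of the inflamed mice. With BRG1, Tigit was 16.3-fold higher (13.8 to 19.5) in the mosaic females and 3.84-fold higher (3.57 to 4.12) in the reexpressed cells. The mosaic control was itself 3.11-fold above WT, so that the fold after TAM was only a little wider than the distance between both controls. WT was 5.26-fold (4.35 to 6.39) above the mosaic Brg1-deleted library, which was thus the lower one with either control.

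Cd96, a receptor of CD155 that is abundant on T and NK cells, was at 104 FPKM in WT, 88.7 and 179 in the mosaic Brg1-sufficient and Brg1-deleted libraries, 88.1 in untreated rKO1, and 125 and 84.8 in the GFP+ and GFP- libraries. Within each host, the Brg1-deleted library exceeded its partner with BRG1. Cd96 was 2.01-fold lower (1.94 to 2.09) in the mosaic Brg1-sufficient cells, just past the criterion, and 1.47-fold lower (1.41 to 1.55) in the reexpressed cells. Both folds were beyond those of the comparable pairs, 1.17 and 1.42, the second by a small margin. The mosaic Brg1-sufficient, untreated rKO1 and GFP- libraries did not differ beyond counting error.

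Cd226, the stimulatory partner of TIGIT and CD96, was at 21.5 FPKM in WT, 11.6 and 10.5 in the mosaic Brg1-sufficient and Brg1-deleted libraries, 4.72 in untreated rKO1, and 9.52 and 6.31 in the GFP+ and GFP- libraries. The healthy mice held the 3 highest levels and the inflamed mice the 3 lowest. Its fold in the mosaic females was 1.10 (1.013 to 1.19), and in the reexpressed cells it was 1.51-fold lower (1.34 to 1.70). Neither fold exceeded its 1.85-fold and 2.02-fold differences in the comparable pairs. Exon lengths of 4714 and 2357 bases both turn its values into whole reads, and with the shorter one, which gives fewer reads, the mosaic interval ran from 0.98 to 1.24.

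Lag3 and Havcr2 had few reads. Lag3 was at 1.41 FPKM in WT, 5.45 and 1.42 in the mosaic Brg1-sufficient and Brg1-deleted libraries, 0.59 in untreated rKO1, and 0.83 and 1.26 in the GFP+ and GFP- libraries, from 239 reads in the highest down to 22 in the lowest. The mosaic Brg1-sufficient library was beyond counting error of every other library. Neighbours among the other 5 did not differ beyond counting error, but the mosaic Brg1-deleted and WT libraries were 2.40-fold (1.47 to 4.07) and 2.39-fold (1.40 to 4.17) above untreated rKO1. The highest library was 3.85-fold above the Brg1-deleted library (2.94 to 5.09) and 3.88-fold above WT, the other Brg1-sufficient control. The same library had the highest summed level of CD8 T or NK cell markers of the 6, at 20.3 FPKM against 6.62 to 13.6, with 5 of these 6 markers above 3 reads. Cd8b1 made up most of that sum (14.97 FPKM against 11.9 in the Brg1-deleted library), Cd8a was at 0.81 against 0.88 FPKM, and Ncr1 was at 3.24 against 0.03 FPKM. Ncr1 was higher still in the GFP+ library (4.75 FPKM), where Lag3 was at 0.83 FPKM. The part of these markers in the Lag3 difference was not tested. After TAM, Lag3 stayed under 5 CPM in both libraries.

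Havcr2 was at 0.39 FPKM in WT, 1.17 and 0.12 in the mosaic Brg1-sufficient and Brg1-deleted libraries, 2.74 in untreated rKO1, and 3.53 and 10.8 in the GFP+ and GFP- libraries. The libraries of inflamed mice were all above those of healthy mice, and within each host the library with BRG1 was the higher. The reexpressed library, with 463 reads, was 3.05-fold above the GFP+ library (2.55 to 3.68). That fold was hardly wider than the 3.01-fold (1.72 to 5.57) by which the mosaic Brg1-sufficient library exceeded WT, which had 16 reads. In the other comparable pair Havcr2 differed 1.29-fold. The mosaic libraries, with 66 and 8 reads, differed 9.43-fold (4.52 to 22.7) but were both under 5 CPM and so were not called. Havcr2 is also expressed by myeloid cells, whose 6 markers summed to 59.7 FPKM in the reexpressed library and to 154 in the GFP+ library, with 4 of the 5 tested called lower in the reexpressed library. Itgam had few reads, 19 in the reexpressed and 2 in the GFP+ library. Their part in the Havcr2 difference was not tested.

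The composition of the receptors changed with these differences. The 10 receptors together summed to 297 FPKM in WT, 345 and 288 in the mosaic Brg1-sufficient and Brg1-deleted libraries, 388 in untreated rKO1, and 358 and 716 in the GFP+ and GFP- libraries. Cd96 made up 61.9% of the sum in the mosaic Brg1-deleted library and 25.7% in its Brg1-sufficient partner, where Tigit led with 29.4%. In the reexpressed library, Tigit took 32.9%, Ctla4 29.7%, Icos 17.5% and Cd96 11.8%. Cd96 led in the WT, GFP+ and mosaic Brg1-deleted libraries and in both aTreg ones, and Tigit led in the other 3.

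**Figure D3:**
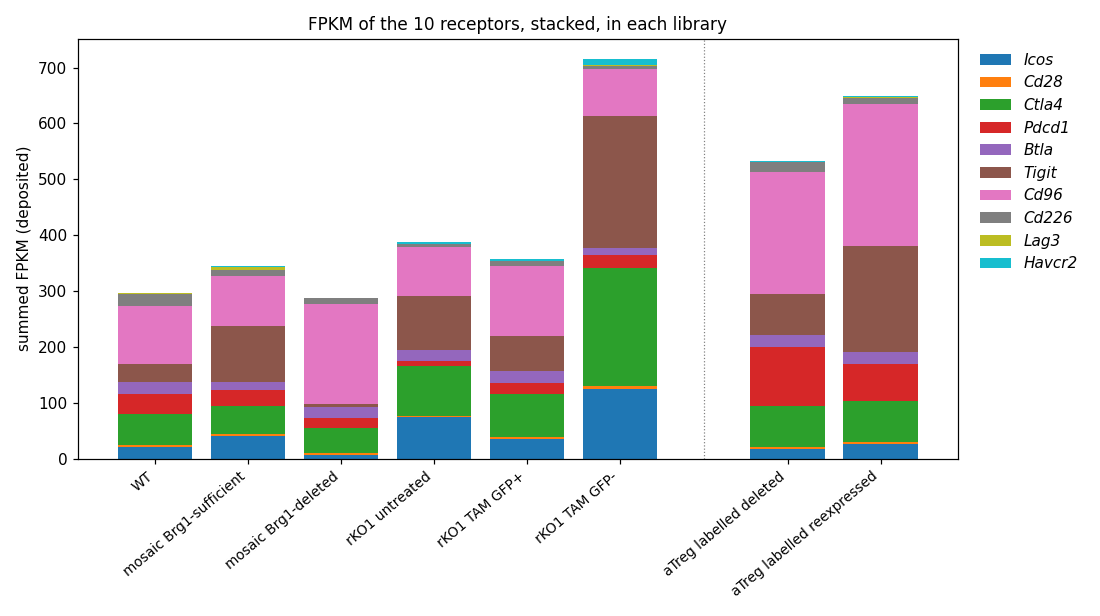
Summed FPKM (vertical axis) of the 10 receptors in each library, with 1 colour per receptor and aTreg libraries right of the dotted line. The GFP- library reaches 716 FPKM, and Cd96 takes 61.9% of the bar of the mosaic Brg1-deleted library.

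Ratios of receptors within a library do not depend on how libraries were scaled. The ratio of Tigit to its stimulatory competitor Cd226 was 1.52 in WT, 8.73 in the mosaic Brg1-sufficient library, 0.59 in the mosaic Brg1-deleted library, 20.7 in untreated rKO1, 6.44 in the GFP+ library and 37.2 in the GFP- library. It was above 1 in every library but the mosaic Brg1-deleted one. The ratio of Tigit to Cd96 was 1.14 and 0.035 in the mosaic Brg1-sufficient and Brg1-deleted libraries and 0.49 and 2.77 in the GFP+ and GFP- libraries. It was also above 1 in untreated rKO1, which lacks BRG1 (1.11), and below 1 in WT (0.31) and in the aTreg libraries labelled deleted and reexpressed (0.34 and 0.75), so that which of them was the more abundant did not follow the BRG1 label in every library. The ratio of Ctla4 to Cd28, which share their ligands, was 20.5 in WT, 14.7 and 12.0 in the mosaic Brg1-sufficient and Brg1-deleted libraries, 27.6 in untreated rKO1, and 24.7 and 44.8 in the GFP+ and GFP- libraries. Ctla4 exceeded Cd28 in all 6 libraries. The ratio of Icos to Cd28 was 11.4 and 2.03 in the mosaic Brg1-sufficient and Brg1-deleted libraries and 11.4 and 26.4 in the GFP+ and GFP- libraries. Although Ctla4 and Icos are neighbours, their ratio was 5.92 in the mosaic Brg1-deleted library and between 1.20 and 2.59 in the other 5.

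**Figure D4:**
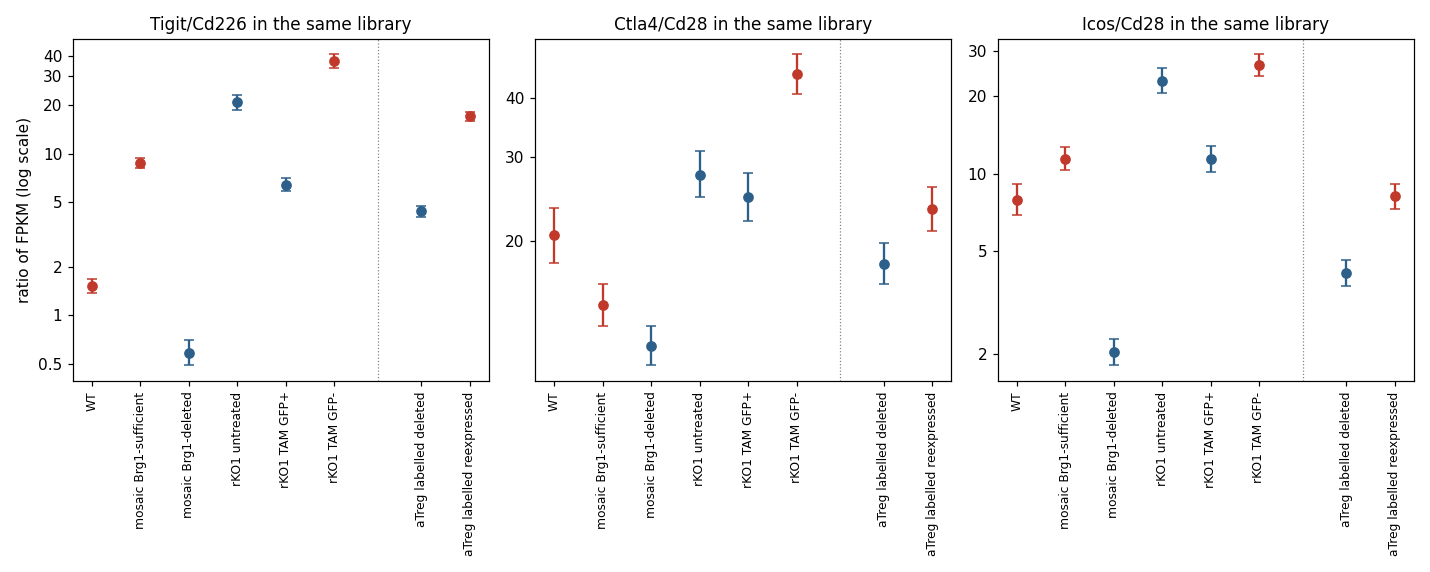
Ratio of FPKM within each library (vertical axes, log scale) for Tigit to Cd226, Ctla4 to Cd28 and Icos to Cd28, in red for libraries labelled Brg1-sufficient or reexpressed and blue for Brg1-deleted, with bars for exact 95% counting intervals, total Treg libraries left and aTreg libraries right of the dotted line. The Tigit to Cd226 ratio runs from 0.59 in the mosaic Brg1-deleted library to 37.2 in the GFP- library.

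The host was compared between Brg1-deleted cells of untreated rKO1 mice and Brg1-deleted cells of mosaic females. Havcr2 was 22.2-fold (10.9 to 52.4), Tigit 15.8-fold (13.3 to 18.9), Icos 10.1-fold (9.24 to 10.98) and Ctla4 2.04-fold (1.93 to 2.14) higher in the inflamed host, 4 of the 9 receptors tested. Cd226 was 2.23-fold lower (1.99 to 2.51) and Cd96 2.03-fold lower (1.95 to 2.11), so that 2 were lower. Over all genes tested, 9.28% were higher and 5.9% lower. Thus the receptors that were higher with BRG1 in either contrast, other than Lag3, were also higher in Brg1-deleted cells of an inflamed host, a comparison that shares the mosaic Brg1-deleted library with the mosaic contrast. Scaled by TMM (trimmed mean of M-values), Ctla4 was no longer called, and scaled by total recovered reads the calls over all genes shifted from 978 higher and 622 lower to 1259 and 469. Of the 6 myeloid markers, 4 of the 5 tested were also called higher in untreated rKO1 and 0 lower. Adgre1 was 23.3-fold, Csf1r 13.7-fold, Fcer1g 10.4-fold and Cd68 3.50-fold higher, while Lyz2, the most abundant of them, was at 55.7 against 96.5 FPKM, and the sum was 165 against 109 FPKM. Of the 5 helper T cell markers, 2 of 3 tested were higher (Il4 and Ifng). The part of these markers in the receptor differences, that for Havcr2 included, was not tested.

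Against the Brg1-sufficient controls, the Brg1-deleted cells of untreated rKO1 mice did not lack the induced receptors. Against WT, 5 of 9 receptors tested were called, beside 16% of all genes in either direction. Havcr2 (7.07-fold), Icos (3.39-fold) and Tigit (3.00-fold) were higher, and Cd226 (4.55-fold) and Pdcd1 (3.63-fold) were lower. Against the mosaic Brg1-sufficient library, 4 of 10 were called, beside 17.5% of all genes. Havcr2 (2.35-fold) was higher, and Lag3 (9.24-fold), Pdcd1 (2.71-fold) and Cd226 (2.46-fold) were lower. Tigit did not differ beyond counting error between these libraries, at 1.03-fold (0.97 to 1.10) lower, and was 0.21 higher on the log2 scale when scaled by total recovered reads. Pdcd1 and Cd226, called lower against both controls, were at 2.03-fold and 2.02-fold higher levels in the GFP+ than in the untreated rKO1 library, where 3 of 9 receptors were called (Icos was 2.08-fold lower) beside 4.55% of all genes.

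The reexpressed cells exceeded both Brg1-sufficient controls in the same 4 receptors. Against WT, Havcr2 was 27.8-fold (17.0 to 49.1), Tigit 7.21-fold (6.55 to 7.95), Icos 5.76-fold (5.41 to 6.14) and Ctla4 3.78-fold (3.60 to 3.98) higher. Cd226 was 3.40-fold lower, so that 5 of 9 were called, beside 17.4% of all genes. Against the mosaic Brg1-sufficient library, Havcr2 was 9.25-fold (7.13 to 12.2), Ctla4 4.12-fold (3.94 to 4.32), Icos 3.11-fold (2.98 to 3.25) and Tigit 2.32-fold (2.20 to 2.45) higher. Lag3 was 4.32-fold lower, so that 5 of 10 were called, beside 21.9% of all genes. Both controls themselves differed at least 2-fold in Tigit and Lag3, 2 of 9 receptors tested, beside 9.66% of all genes, both lower in WT. Havcr2 was also 3.01-fold lower in WT, but it was under 5 CPM in both controls and so was not tested.

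In the aTreg experiment, which sorted cells by activation before sequencing, Havcr2 and Tigit were called higher in the library labelled Brg1-reexpressed, 2 of 9 receptors tested, and 0 were lower. Over all genes tested, 4.06% were called higher and 2.31% lower, with a median log2 fold of -0.10 over all genes and 0.05 over the receptors. Tigit was at 74.6 and 191 FPKM in the libraries labelled deleted and reexpressed, a 2.56-fold difference (2.40 to 2.73). Havcr2 was at 0.44 and 2.39 FPKM, from 21 and 130 reads, a 5.40-fold difference (3.39 to 9.02). Here the summed myeloid markers were higher in the library labelled reexpressed, at 556 against 362 FPKM, and their part in the Havcr2 difference was not tested. Icos was at 16.9 and 25.7 FPKM, 1.52-fold higher (1.41 to 1.64). The libraries labelled deleted and reexpressed also differed in sex-linked reads, with Xist at 217 and 834 and Eif2s3y at 1739 and 908. All 4 Y-linked genes had fewer reads in the library labelled reexpressed. The part of sex in the receptor differences was not tested.

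Ctla4, which stood out among total Treg cells after TAM, did not differ beyond counting error between the aTreg libraries, at 73.7 and 73.4 FPKM (ratio 0.95 to 1.05), and its small log2 difference changed from -0.01 to 0.04 under TMM scaling. Pdcd1 was at 106 and 67.4 FPKM, 1.57-fold lower (1.49 to 1.65) in the library labelled reexpressed, and Cd226 at 16.9 and 11.2 FPKM was 1.51-fold lower (1.39 to 1.63). Cd28 was at 4.12 and 3.15 FPKM and Btla at 19.95 and 20.7 FPKM. Cd96 was at 219 and 254 FPKM, 1.16-fold higher (1.13 to 1.19), and Lag3 at 1.11 and 1.07 FPKM stayed under 5 CPM in both. The ratio of Tigit to Cd226 was 4.41 and 17.0 and that of Ctla4 to Cd28 was 17.9 and 23.3. Helper T cell markers summed to 32.3 and 27.6 FPKM, with Il4 3.57-fold higher and Cd40lg 2.04-fold lower in the library labelled reexpressed. The summed Treg markers were 417 FPKM in the library labelled deleted and 246 in the other, with Cd3e at 234 and 92.7 FPKM.

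The ligands of the receptors were read in the same libraries. Of 14 ligand genes, 7 could be tested in the mosaic females, with 1 called higher and 0 lower, and 8 after TAM, with 2 higher and 0 lower. Over all genes, 4.05% were higher and 2.17% lower in the mosaic females, and 6.59% and 6.43% after TAM. Lgals3, which encodes a galectin that binds LAG3, was the ligand called in both, 7.66-fold higher in the mosaic Brg1-sufficient cells (37.4 against 4.89 FPKM) and 3.59-fold higher in the reexpressed cells (416 against 116 FPKM). Galectin-3 is also abundant in macrophages, and the summed myeloid markers were at 122 and 109 FPKM in the mosaic libraries. Lyz2 made up most of these sums, at 87.2 and 96.5 FPKM. Fcer1g was 3.64-fold higher in the Brg1-sufficient library, 1 of 3 myeloid markers tested, and 0 were called lower. After TAM the sums were 154 FPKM in the GFP+ and 59.7 in the GFP- library. The part of myeloid cells in the Lgals3 differences was not tested. Cd80 was 2.40-fold higher in the reexpressed cells, at 2.79 against 1.16 FPKM. The other ligands that reached 5 CPM were Cd86, Cd274 (PD-L1), Pdcd1lg2 (PD-L2), Tnfrsf14 (the BTLA ligand HVEM), Pvr and Lgals9 (a TIM-3 ligand), of which none was called in either contrast. Pvr, the shared ligand gene of TIGIT, CD96 and CD226, was at 2.61 and 4.07 FPKM in the mosaic Brg1-sufficient and Brg1-deleted libraries and at 3.13 and 1.95 in the GFP+ and GFP- libraries.

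Of 20 other receptors of this kind, 15 could be tested in the mosaic females, with 1 higher and 1 lower, and 16 after TAM, with 2 higher and 2 lower. The share of all genes called in either direction was 6.21% in the mosaic females, 13% after TAM and 6.37% in the aTreg contrast. Pvrig, an inhibitory receptor of the same nectin family of ligands as TIGIT, was at 11.7 and 0.66 FPKM in the mosaic Brg1-sufficient and Brg1-deleted libraries and at 4.89 and 32.7 in the GFP+ and GFP- libraries, 17.6-fold and 6.68-fold higher with BRG1. Cd160, which shares the ligand HVEM with BTLA, was 2.12-fold lower in the mosaic Brg1-sufficient cells and 4.38-fold lower in the reexpressed cells. In the aTreg contrast, 18 of these receptors were tested, with 4 higher and 0 lower in the library labelled reexpressed. Cd160 was 2.42-fold higher there, opposite to the other contrasts, and Pvrig was 3.21-fold higher, in the same direction as in them. The 24 signalling proteins downstream of the receptors, such as Lck, Zap70 and Ptpn11, were all tested and 0 were called in the mosaic, TAM and aTreg contrasts. The 12 tested of 14 genes that handle CTLA4 and related receptors, such as Rab11a and Trat1, likewise gave 0 calls in these contrasts.

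Of 16 transcription factors known to act on these receptor genes, 14 could be tested in the mosaic females, with 5 higher and 0 lower. After TAM, 14 were tested, with 2 higher and 3 lower. The shares over all genes were 4.05% higher and 2.17% lower in the mosaic females, and 6.59% and 6.43% after TAM. Prdm1, the BLIMP-1 gene, was 5.62-fold higher with BRG1 in the mosaic females and 3.37-fold higher in the reexpressed cells. Maf was 5.93-fold and 2.35-fold higher. Both factors are known to act on coinhibitory receptor genes of activated T cells, and they were the factors called in both contrasts. The study named Prdm1 among the activation genes it picked on these libraries, so its direction is not independent evidence. The part of these factors in the receptor differences was not tested. In the aTreg contrast, 0 of 15 factors tested were called, beside 6.37% of all genes in either direction. For comparison, the median log2 fold of the factors was 0.54 in the mosaic females and 0.03 after TAM, against 0.03 and 0.01 over all genes.

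For each receptor, the genes outside the list with the most similar profile over the 6 total Treg libraries were taken by the root mean square difference of log2(FPKM + 0.1), after centring, among 9908 coding genes. These are descriptions over 6 libraries that share conditions. Ctla4 lay closest to Pttg1 (0.11) and Anln (0.12), both known for roles in cell division. Icos lay closest to Glrx (0.13), which encodes glutaredoxin, and to Vsig10 (0.22). Tigit lay closest to Selenom (0.38) and S100a6 (0.48), and Havcr2 to Tspan17 (0.43) and Cib2 (0.49). Cd226 lay closest to Clec2i (0.096), a lectin-like gene, and Smox (0.16), and Pdcd1 to Ubb (0.13) and Bdh1 (0.16). Cd96 lay closest to Spice1 (0.12) and Qprt (0.13), Btla to Atg16l1 (0.066) and Trit1 (0.068), Cd28 to Snrnp40 (0.078) and Dnmt1 (0.081), and Lag3 to Zfp36l1 (0.36) and Pde12 (0.40). Among the receptors themselves, the closest pairs by this distance were Btla with Cd96 (0.32), Pdcd1 with Cd226 (0.35) and Tigit with Icos (0.48). Their Pearson correlations were 0.57, 0.86 and 0.97. A small distance can also mean that both genes varied little. Cd28 with Btla lay at 0.48 as well, with a correlation of -0.80. The neighbours Ctla4 and Icos were not among the closest pairs, at a distance of 0.77, but had a correlation of 0.85. Havcr2 with Icos, at 0.81, had a correlation of 0.93.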

How the data were processed

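Sorted mouse Treg cells gave 8 SMART-Seq v4 libraries (paired ends), 1 per condition, grouped by their titles. The authors deposited FPKM values per Ensembl gene. The submitters' processing notes name HISAT2 2.0, StringTie 1.3.3b, featureCounts 1.5.0-p3 and mm10, with no role or order. The annotation was not given in the sources used here.

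Of 53465 identifiers, 53360 were in GENCODE M21 (GRCm38) and 105 were not. Reads were recovered as FPKM times merged exon length times the implied library total. In the total Treg files, 93.7% of 26020 genes with reads became whole (within 0.05) in every library and 1331 more did with another length, as for Tigit, Btla and Cd226. In the aTreg files this held for 100% of 21242 genes. The implied totals were 0.817 to 1.09 times the recovered reads. A recovered read is a fragment. Reads were used for counting intervals and CPM filters, with 3 reads or fewer as the floor.

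Folds are ratios of deposited FPKM. Genes reaching 5 CPM in 1 library of a comparison were tested, and they were called at 2-fold, the criteria of the study's methods, without its adjusted p, since 1 library per condition leaves no dispersion. In all, 10 comparisons were made. Alternatives were TMM scaling, total recovered reads, no low-value filter (more than 3 reads) and pseudocounts of 0.1 and 1 FPKM. Calls were tested on simulated data. Named genes were the 10 receptors, Smarca4, list genes called in both the mosaic and the TAM contrast, ligands reaching 5 CPM, and the 2 nearest profiles per receptor. Genes named beyond this rule (Cd80 values, Cd160 and Pvrig in aTreg, single marker genes and list examples) were chosen after their values were seen. The receptors and lists were chosen with earlier results of these data known. Scripts ran under Python 3.11.15 (pandas 2.3.3, SciPy 1.17.1, NumPy 2.4.6) with plots from matplotlib 3.10.9.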

Additional observations from a re-analysis of the deposited data

Results flagged for a closer look

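In 3 cases a receptor's contrast between libraries with and without BRG1 went one way in one setting and the other way in another, each with a counting interval that excluded equality. With 1 library per arm, these differences were not tested. Cd28 was higher in the reexpressed cells of total Treg (0.61 on the log2 scale) and lower in the aTreg library labelled reexpressed (-0.39). Cd96 was lower in the reexpressed total Treg cells (-0.56) and higher in the aTreg library labelled reexpressed (0.21). Cd226 was higher in the Brg1-sufficient cells of mosaic females (0.14) and lower in the reexpressed cells (-0.59). With the shorter of the possible exon lengths (2357 bases), which gives fewer reads, the mosaic interval of Cd226 held equality (0.98 to 1.24). Both aTreg values rest on the sample titles, and with those titles exchanged Cd28 and Cd96 would have the same sign in aTreg as in total Treg cells. The same exchange would part the signs of Tigit, Havcr2, Icos and Cd226, which are now the same in aTreg cells and after TAM. All 6 values given for Cd28, Cd96 and Cd226 are under 2-fold, and none was called.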

How the results depend on the processing

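Every call above 2-fold kept its direction under TMM scaling, total recovered reads, no low-value filter and pseudocounts of 0.1 and 1 FPKM. That outcome was fixed beforehand, since pseudocounts and the filter cannot turn a fold. The rescaled totals, at 0.920 to 1.22 times those deposited, also lay too near each other to turn a 2-fold difference. In 9 of the 10 comparisons, the number of receptors called stayed within 1.5 times the reported one under every alternative. The exception was the comparison of Brg1-deleted cells with and without TAM, where 3 called receptors became 1 under TMM scaling, 1 under total recovered reads and 1 with a pseudocount of 1 FPKM. There Pdcd1 and Cd226, at 2.03-fold and 2.02-fold, dropped under the criterion and Icos was left. Without the low-value filter, Havcr2 was called in the mosaic females, which made 5. Against the mosaic Brg1-sufficient library, untreated rKO1 cells gave 6 calls under total recovered reads, and Havcr2 was not called with a pseudocount of 1 FPKM. Under total recovered reads Cd96 was no longer called in the inflamed against the mosaic host, and Cd226 became called lower in reexpressed against mosaic Brg1-sufficient cells. Directions that turned under another scaling could thus only belong to folds that were not called. No paired analysis was possible because the groups of each comparison share fewer than 2 replicate numbers (1 library per condition), so that no replicate could be left out either, and the spread between animals is unknown. Lag3 and Havcr2 are limited by depth, with as few as 22 and 8 reads in a library. Direction in the aTreg experiment rests on the titles, against which stand the column heading and Smarca4 of 1 library.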
